A study of Danio rerio with 4 samples.

Results

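The genes described here are the nuclear-encoded genes of the mitochondrial respiratory chain and ATP synthase in zebrafish. They were chosen by symbol alone, as every gene of the count table whose symbol, ignoring case, starts with nduf (but not ndufaf), sdha, sdhb, sdhc, sdhd, uqcr, cox4, cox5, cox6, cox7, cox8 or atp5. The rule found 97 of the 31952 genes in the table, of which 26121 carried a symbol. By the complex their products belong to, 38 were assigned to complex I, 5 to complex II, 8 to complex III, 22 to complex IV and 20 to complex V, and a further 4 were assembly factors of succinate dehydrogenase that share the sdha prefix. The 4 ndufa4 genes were counted with complex IV, where their product is placed in mammals. Of the 97 genes, 96 had enough counts for a test, and the exception was ndufa4l2b, with 0 counts in 3 of the 4 libraries and 1 count in NRas+ 2.

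RNA-seq libraries had been made from nuclei pulled down from dissected heads of pooled larvae at 5 dpf, with 2 libraries per condition. All larvae came from a cross between the ox128 line, which carries mpo:BirA-Citrine together with bactin:Avi-Cerulean-Rangap, and the kita line, which carries kita:LexPR-Cerulean and, behind a PcrysB:ECFP lens marker, LexOP:mCherry-NRas, labelled ox130. In this cross the mpo (mpx) promoter drives the biotin ligase BirA in neutrophils, the bactin promoter drives the Avi-tagged nuclear envelope protein that BirA labels in all cells, and the kita promoter drives the LexPR activator in melanocytes. The NRas+ larvae were kept in 1 µM mifepristone from 24 hpf, which lets LexPR switch on mCherry-NRas, and the control larvae carried the same transgenes without the drug. The oncogene and the drug therefore cannot be told apart in these libraries. The labels give ox130 beside the kita driver, whereas the study's text gives that number to its mitfa line and ox129 to its kita line. Neither source settles whether libraries of the same condition are technical or biological replicates, so p-values measure only the spread between these samples.

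Complex I takes electrons from NADH and complex II takes them from succinate. Both pass them to ubiquinone, complex III hands them on to cytochrome c, and complex IV reduces oxygen, while complex V makes ATP from the proton gradient that complexes I, III and IV build. A few catalytic subunits do this work and are surrounded by many small accessory subunits, and 13 further subunits are encoded by the mitochondrial genome. Heart and skeletal muscle are rich in these complexes, whereas mammalian neutrophils are known for few mitochondria and a reliance on glycolysis.

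Total counts lay between 30619195 and 42365244 per library. TMM scaling factors were 0.878 for control 1, 1.41 for control 2, 0.861 for NRas+ 1 and 0.941 for NRas+ 2, so control 2 stood apart in its composition. Markers of skeletal muscle (29 genes, all detected in every library) took 30.6% of the counts in control 1, 21.4% in control 2, 44.0% in NRas+ 1 and 44.2% in NRas+ 2. By contrast, 14 neutrophil markers took between 0.00671% and 0.0128% of the counts. Among them lyz was present in all 4 libraries, at 3.0 to 12.6 CPM (the count relative to the library total after TMM scaling), cybb was at 0 in control 1 and NRas+ 1, and mpx was not found by name. The tissue is labelled as neutrophil, and from which cells the RNA described below came is not known. In such bulk samples fewer cells of a type and less RNA per cell cannot be told apart.

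None of the 96 respiratory chain genes passed an adjusted p of 0.05 between NRas+ and control by edgeR (quasi-likelihood test, adjusted after Benjamini and Hochberg over 20099 genes). Over all genes tested 0.129% passed as higher and 0.0398% as lower, so a list of this length would hold few calls or none at the background rate. The smallest adjusted p of a member was 0.234, for SDHA. DESeq2 also called 0 members in either direction, with a smallest adjusted p of 0.0657, again for SDHA. At an unadjusted p under 0.05 there were 3 members higher and 7 lower, where 5.16% of all genes were higher and 6.11% lower. The groups did not overlap for 15 members higher in NRas+ (15.6%) and 10 members lower (10.4%), below the shares of 20.5% and 21.8% over all genes tested. The median log2 fold change of the members was -0.04, beside -0.04 for all genes tested. Their fold changes ranged from -1.17 to 1.12 with an interquartile range of 0.77, narrower than the 1.19 of all genes. These 2 spreads are not of like precision, since the median standard error was 0.43 for members and 0.70 for all genes tested. The members also had higher levels, with a median log2(CPM + 0.5) of 5.83 to 6.83 by library, against 2.25 to 2.31.

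The spread within the controls was larger than the difference between conditions. The members' summed level was 19096 CPM in control 1 and 9361 CPM in control 2, and the NRas+ libraries lay between them at 14869 and 13723 CPM. Control 2 was below control 1 for 92 of the 96 members, with a median log2 difference of -0.96, whereas the median over all genes tested was 0.07. Control 1 was the highest library for 70 members (72.9%, against 30.2% of all genes tested) and control 2 the lowest for 64 members (66.7%, against 19.1%). After TMM scaling each NRas+ library therefore gave opposite answers against the 2 controls. Against control 1 the median member difference was -0.41 for NRas+ 1 and -0.61 for NRas+ 2, and against control 2 it was 0.57 and 0.43. Without control 1, 78 of the 96 members had a positive fold change. In that fit none of the 96 members passed the adjusted threshold, while 0.602% of all genes tested passed as higher. Without control 2, 19 of the 96 were positive and 8 passed as lower, namely NDUFA6, ndufa5, NDUFA2, ndufb3, COX6A1, cox6c, ATP5MG and atp5if1a. That fit called 2.07% of all genes tested lower, more than the 0.0398% with all libraries. In both fits the lone control was assumed to vary like the NRas+ libraries. With counts scaled to the library totals alone, without TMM, the median difference of control 2 from control 1 was -0.31 for the members and 0.64 for all genes tested, so the members stayed about as far below the other genes. As a share of all counts, without TMM, members took 1.68% in control 1, 1.31% in control 2, 1.28% in NRas+ 1 and 1.29% in NRas+ 2. On that scale both NRas+ libraries lay below both controls, close to control 2, and not between the controls.

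**Figure D1:**
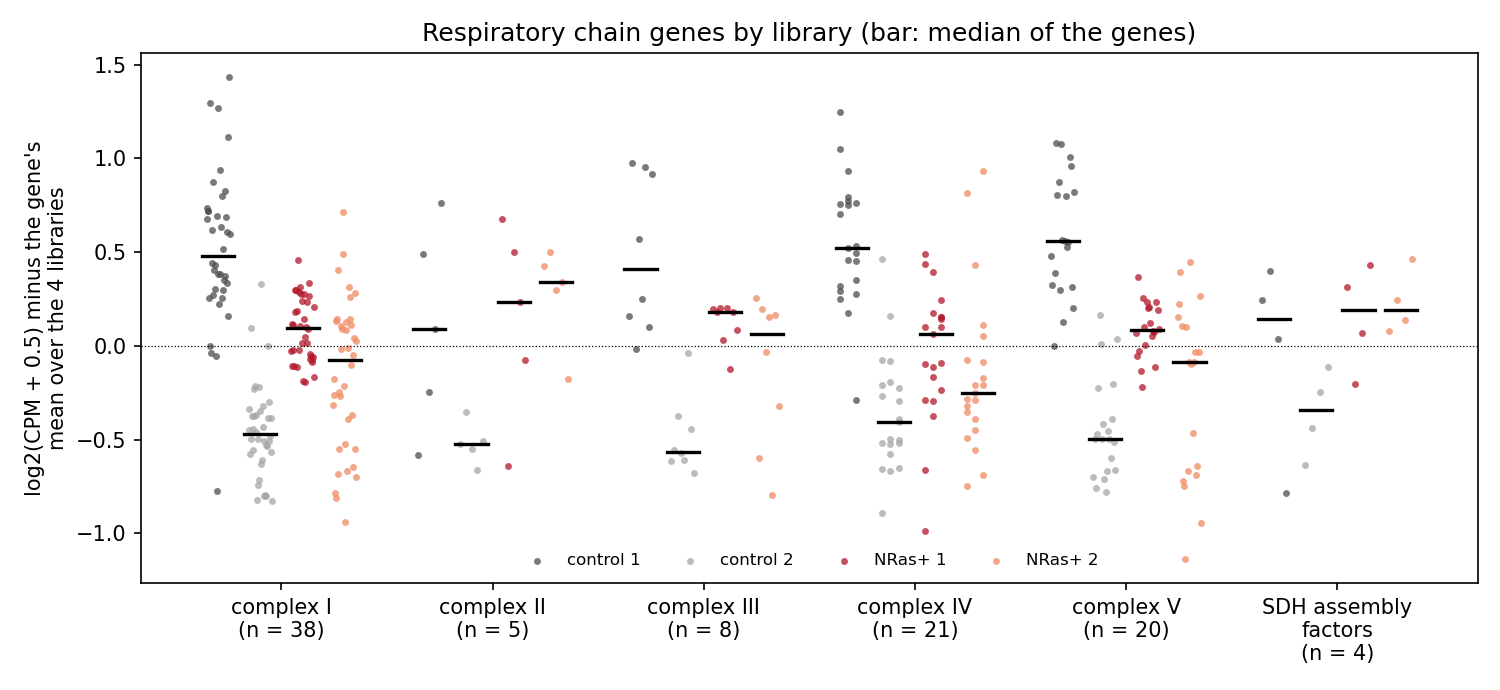
Each point is a tested member, plotted as its log2(CPM + 0.5) in a library minus its own mean over the 4 libraries, grouped by complex, with the median as a bar. In complexes I to V control 2 has the lowest median, and in complexes I, III, IV and V control 1 has the highest.

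The complexes were ordered by their median fold change as complex II at 0.53, complex III at 0.10, complex V at -0.04, complex I at -0.08 and complex IV at -0.16 on the log2 scale. Leaving out 1 library at a time moved these medians across 0 for complexes I, III, IV and V, and complex II ranged from 0.22 without control 2 to 0.97 without control 1. All 5 complex II genes were classed as core subunits, whereas the other complexes also held accessory ones. Medians were 0.46 and 0.36 for the core subunits of complexes I and III. They were -0.29 for the cox4 and cox5 genes of complex IV and 0.02 for the F1 genes of complex V. The position of complex II was seen also in ratios of summed CPM within a library, which do not depend on library scaling. The summed CPM of complex II relative to complex V was 0.0462 and 0.0565 in the controls and 0.0646 in both NRas+ libraries. The step between the 2 controls was thus larger than the step from control 2 to either NRas+ library. For complex IV relative to complex V the ratios were 0.460 and 0.435 in the controls and 0.414 and 0.338 in NRas+, and for complex I they were 0.506 and 0.489 in the controls and 0.447 and 0.423 in NRas+. Complex III relative to complex V overlapped, at 0.113 and 0.118 in the controls and 0.115 and 0.110 in NRas+. In each of the ratios for complexes I, II and IV the groups did not overlap. With 2 libraries against 2 an exact two-sided permutation test cannot give a p below 0.333, so these orders are descriptions.

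In complex I the medians differed by role. Most accessory subunits are small proteins, and whether the difference went with role or with size was not tested. All 7 core subunits had positive fold changes, with a median of 0.46 (range 0.15 to 0.98), and 21 of the 31 accessory subunits had negative ones, with a median of -0.27 (range -1.16 to 0.44). NDUFS8 (ENSDARG00000051986), an iron-sulphur subunit on the path of the electrons to ubiquinone, measured, with library 1 before library 2 here and in what follows, 36.4 and 53.6 CPM in the controls and 75.9 and 103 CPM in NRas+. Both NRas+ libraries lay above both controls, a log2 fold change of 0.98 with a standard error of 0.38 (unadjusted p = 0.0187 and adjusted p = 0.323 in edgeR's quasi-likelihood test). NDUFV1 (ENSDARG00000036438), which binds NADH and the flavin, measured 104 and 64.4 CPM in the controls and 134 and 152 CPM in NRas+. The groups again did not overlap, and the log2 fold change was 0.77 ± 0.38 (SE). NDUFS1, the largest of the iron-sulphur subunits, had 112 and 53.5 CPM in the controls and 110 and 117 CPM in NRas+, so its higher control reached the NRas+ values. NDUFV2, NDUFS3 and NDUFS7, further subunits of the matrix arm, overlapped as well. NDUFV2 was at 87.0 and 43.6 CPM in the controls and 73.7 and 70.7 CPM in NRas+, NDUFS3 at 150.1 and 89.1 CPM against 136 and 138 CPM, and NDUFS7 at 150.3 and 84.6 CPM against 130.2 and 135 CPM.

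Among the accessory subunits of complex I the lowest fold changes belonged to small proteins of the matrix arm. NDUFA6 (ENSDARG00000038028) measured 659 and 164 CPM in the controls and 217 and 149.6 CPM in NRas+. Control 1 stood far above the other 3 libraries, and the log2 fold change of -1.16 ± 0.52 (SE) became 0.16 without it. ndufa5 (ENSDARG00000039346) had the same shape, with 179 and 56.0 CPM in the controls and 67.6 and 41.3 CPM in NRas+, a log2 fold change of -1.10 that shrank to -0.04 without control 1. NDUFA2 measured 84.8 and 27.3 CPM in the controls and 35.2 and 18 CPM in NRas+. The unadjusted p of these 3 genes was 0.0364, 0.0289 and 0.0403 by edgeR's quasi-likelihood test, and in all 3 the lower control lay within the NRas+ range. Of the accessory subunits only NDUFA3, NDUFB1 and ndufc1 (9.68%, beside 21.8% of all genes tested) had both NRas+ libraries below both controls. NDUFA3 was at 59.2 and 56.9 CPM in the controls and 39.7 and 31.3 CPM in NRas+. NDUFAB1, the acyl carrier protein, also serves mitochondrial fatty acid synthesis. It was the only accessory subunit (3.23%, beside 20.5% of all genes tested) with both NRas+ libraries above both controls. NDUFAB1 was at 90.9 and 66.8 CPM in the controls against 112 and 101 CPM in NRas+. Both shares were below those of all genes tested.

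Most accessory subunits of complex I, 27 of the 31, overlapped between groups, beside 11591 of the 20099 genes tested. The medians were -0.06 for the 14 ndufa genes, -0.10 for the 11 ndufb genes and -0.56 for the 2 ndufc genes, and the accessory NDUFS4, NDUFS5, NDUFS6 and ndufv3 had log2 fold changes of -0.29, -0.42, -0.55 and -0.74. NDUFB8 measured 214 and 123 CPM in the controls and 187 and 184 CPM in NRas+, and NDUFB9 213 and 124 CPM against 159 CPM in each NRas+ library, both between the controls. NDUFB5 and NDUFA10, subunits of the membrane arm, had the next highest fold changes after NDUFAB1, at 119 and 65.8 CPM against 124 and 112 CPM for NDUFB5 and at 113 and 50.8 CPM against 112 and 95.8 CPM for NDUFA10. At the other end, ndufb3 measured 156 and 51.5 CPM in the controls and 67.8 and 49.1 CPM in NRas+, and ndufv3, a small partner of NDUFV1, 57.8 and 26.9 CPM against 29 and 21.2 CPM. In these genes, as in NDUFA6, only control 1 lay apart.

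The distance between the medians of the core and accessory subunits of complex I was 0.73 on the log2 scale. It kept its direction in all 12 alternative fits, between 0.39 without control 1 and 0.86 without NRas+ 1, and was 0.71 with total counts in place of TMM. The sign of the core subunits themselves was less firm, since 4 of 7 were positive with total counts only and 4 of 7 without control 2. The summed core subunits stood in a ratio to the summed accessory subunits of 0.203 in control 1, 0.28 in control 2, 0.330 in NRas+ 1 and 0.422 in NRas+ 2. This ratio was highest in the NRas+ libraries, and the step between the 2 controls was larger than the step between control 2 and NRas+ 1.

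**Figure D2:**
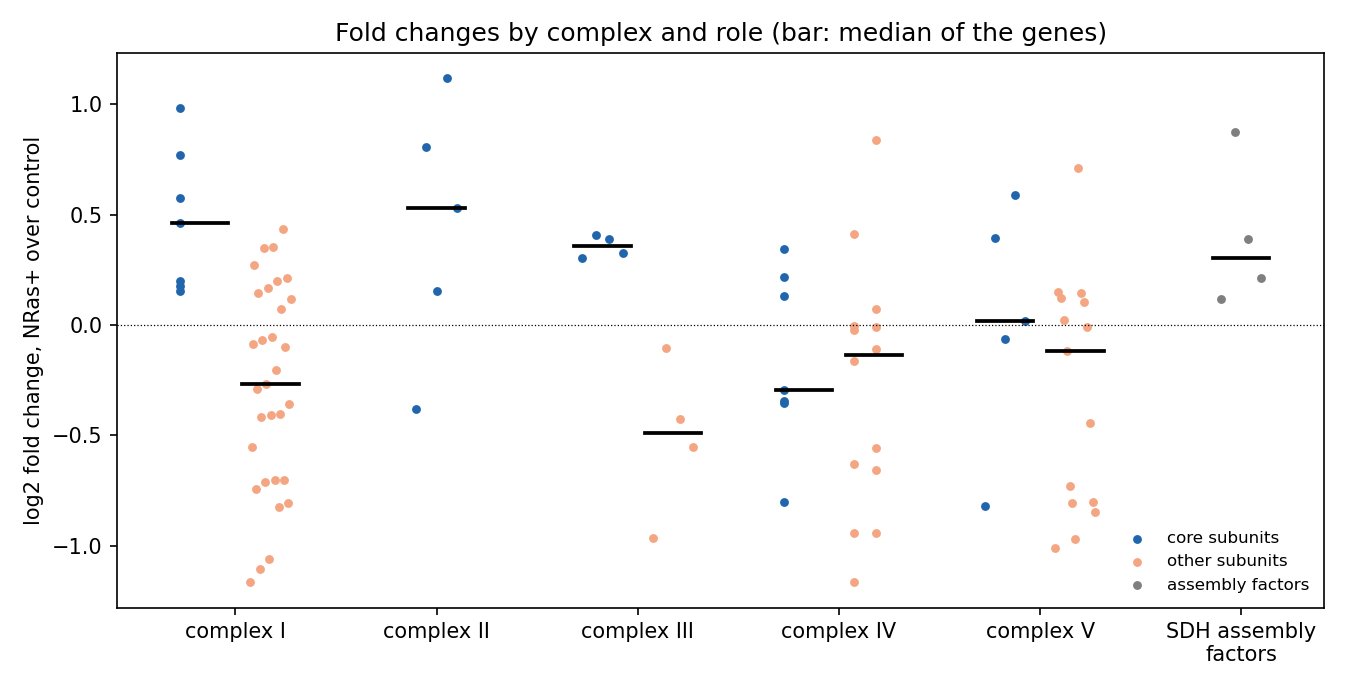
The log2 fold change of NRas+ over control is shown for each tested member by complex, with core subunits, other subunits and assembly factors in separate colours and medians as bars. In complexes I and III the median of the core subunits (0.46 and 0.36) lies above that of the others (-0.27 and -0.49). The genes of the roles overlap in complexes I, IV and V and separate fully in complex III. In complex IV core stands for the cox4 and cox5 genes.

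Complex II held the member with the smallest p, SDHA (ENSDARG00000016721), the flavoprotein that oxidises succinate. It measured 43.9 and 45.8 CPM in the controls and 106 and 88.9 CPM in NRas+. The controls lay close together and both NRas+ libraries above them, a 2.17-fold ratio of means and a log2 fold change of 1.12 (95% confidence interval 0.35 to 1.89). Its unadjusted p was 0.00687 and its adjusted p 0.234 in edgeR's quasi-likelihood test. Unlike most members, SDHA was nearly level between the controls, and its fold change stayed between 0.99 and 1.27 when any 1 library was left out. SDHD (ENSDARG00000030139), a membrane anchor that helps to hold the haem, measured 41.7 and 33.7 CPM in the controls and 70.4 and 61.1 CPM in NRas+, a log2 fold change of 0.81 (unadjusted p = 0.0433 in edgeR's quasi-likelihood test). SDHB, the iron-sulphur subunit, measured 201 and 119.5 CPM in the controls and 222 and 239.7 CPM in NRas+, so that the groups did not overlap but control 1 lay near NRas+ 1. These 3 of the 5 complex II genes (60%, beside 20.5% of all genes tested) had both NRas+ libraries above both controls. SDHC, the other anchor, did not share the direction, with 127 and 52.2 CPM in the controls and 70.6 and 65.9 CPM in NRas+. A further SDHD gene (ENSDARG00000055712) was at 0.605 CPM or less in all libraries. The 4 assembly factors of this complex, which insert its flavin and iron-sulphur clusters or guard the subunits before assembly, all had positive fold changes, from 0.12 for sdhaf1 to 0.87 for SDHAF4. SDHAF4 measured 4.21 and 6.99 CPM in the controls and 10.4 and 10.7 CPM in NRas+. The fold changes of sdhaf1, SDHAF2 and SDHAF3 were smaller than their standard errors. For sdhaf1 the mean was 2.04 CPM in the controls and 2.03 CPM in NRas+.

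**Figure D3:**
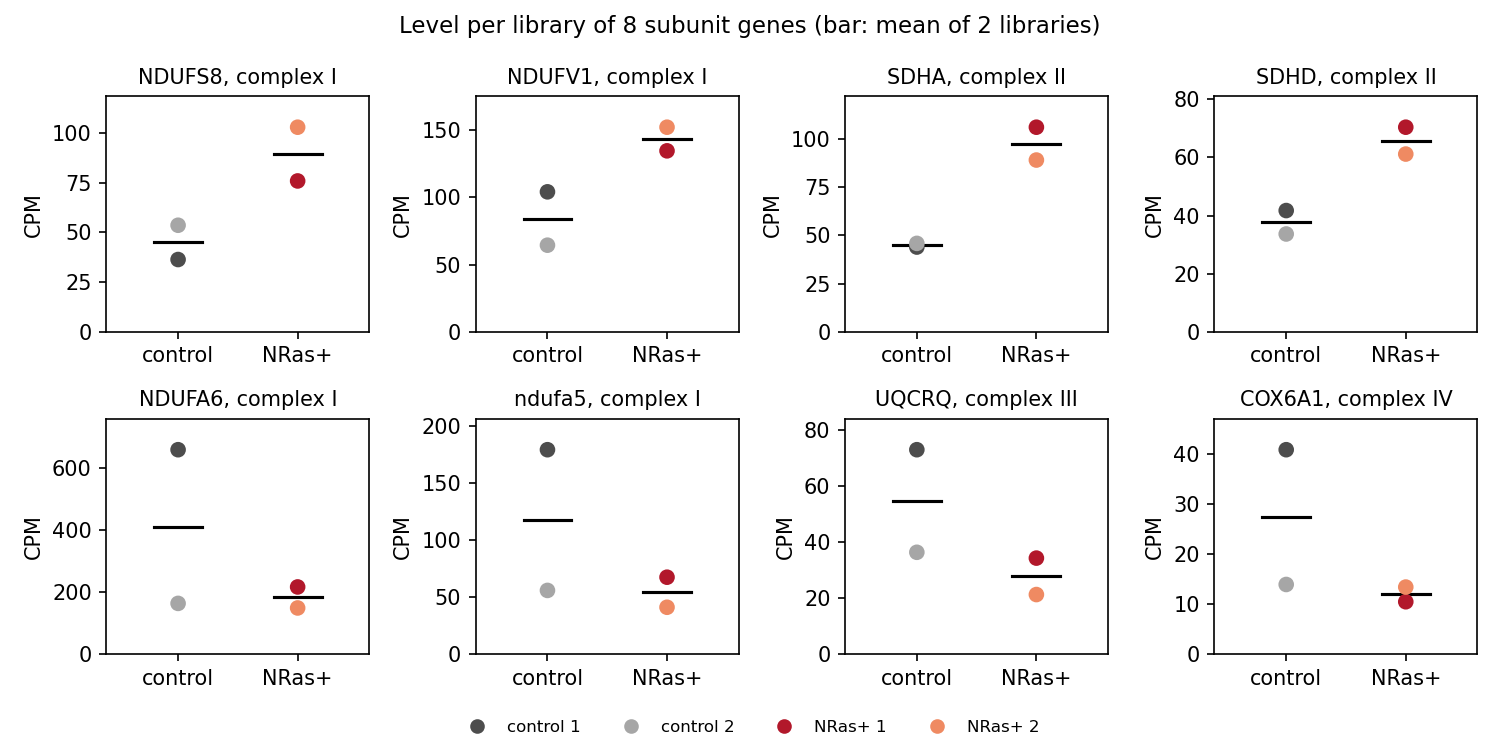
CPM of 8 subunit genes in each library, with the mean of the 2 libraries of a condition as a bar and each axis starting at 0. The NRas+ points of NDUFS8, NDUFV1, SDHA and SDHD (ENSDARG00000030139) lie above both controls, whereas in NDUFA6, ndufa5 and COX6A1 (ENSDARG00000054588) control 2 lies near the NRas+ points and control 1 far above.

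In complex III the 4 core subunits had positive fold changes and the 4 small ones negative. The Rieske iron-sulphur protein UQCRFS1 measured 205 and 119.6 CPM in the controls and 211 and 219 CPM in NRas+. UQCRC2 had 93.9 and 73.3 CPM against 109 CPM in each NRas+ library, and its paralog uqcrc2a had 68.7 and 46.9 CPM against 72.7 and 71.9 CPM. These 3 genes, of which the UQCRC2 pair encodes a structural core protein, did not overlap between groups (37.5% of complex III, beside 20.5% of all genes tested). Their log2 fold changes of 0.33 to 0.41 were about the size of their standard errors. UQCRC1, the other structural core protein, did overlap, at 117 and 64.4 CPM in the controls and 113 and 109.8 CPM in NRas+. With all libraries UQCRC1 had a log2 fold change of 0.30, against -0.05 once control 2 was left out. UQCRQ (ENSDARG00000029064), a small ubiquinone-binding subunit, went the other way, with 73.0 and 36.4 CPM in the controls and 34.3 and 21.3 CPM in NRas+. Its log2 fold change was -0.97 ± 0.42 (SE), and its unadjusted p was 0.034 with an adjusted p of 0.392 in edgeR's quasi-likelihood test. UQCRB, UQCR10 and UQCRH overlapped, with log2 fold changes of -0.43, -0.55 and -0.10. Cytochrome c1, the catalytic subunit CYC1 that the symbol rule does not take in, measured 92.7 and 94.1 CPM in the controls and 178 and 202 CPM in NRas+, a log2 fold change of 1.02 (adjusted p = 0.292 in edgeR's quasi-likelihood test).

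In complex IV 15 of the 21 tested members had negative fold changes, and in 5 (23.8%, beside 21.8% of all genes tested) both NRas+ libraries lay below both controls. Its median of -0.16 became 0.42 without control 1. Several of its subunits exist as paralogs that in mammals belong to different tissues. COX6A1 (ENSDARG00000054588) measured 40.8 and 13.9 CPM in the controls and 10.5 and 13.4 CPM in NRas+. The groups did not overlap, yet control 2 was next to NRas+ 2, and the log2 fold change of -1.17 (unadjusted p = 0.0282 in edgeR's quasi-likelihood test) shrank to -0.22 without control 1. Its paralog cox6a1 (ENSDARG00000022438) measured 709 and 361 CPM in the controls and 576 and 488 CPM in NRas+, inside the control range. COX4I2, in mammals the isoform of lung and low oxygen, measured 25.2 and 27.9 CPM in the controls and 16.3 and 14.1 CPM in NRas+, a log2 fold change of -0.80 ± 0.41 (SE). Its controls agreed closely, which set it apart from COX4I1, the general isoform, at 471 and 194 CPM in the controls and 291 and 228 CPM in NRas+. The homologues of the mammalian muscle isoforms were also lower, cox7a1 at 20.3 and 16.5 CPM against 13 and 10.6 CPM and cox8b at 22.8 and 11 CPM against 9.43 and 7.81 CPM. They were lower while the skeletal muscle markers were higher in NRas+, and neither difference passed an adjusted p of 0.05. The highest positive fold change in the complex was that of ndufa4b, at 16.3 and 14.9 CPM in the controls and 16.9 and 38.6 CPM in NRas+. It rested on NRas+ 2, since the log2 fold change of 0.84 became 0.15 without that library. The subunits with the most counts lay inside the range of the controls. COX5B (ENSDARG00000015978) measured 785 and 303 CPM in the controls and 510.3 and 345 CPM in NRas+, cox5aa 441 and 219 CPM against 409 and 358 CPM, and NDUFA4 265 and 129 CPM against 202 and 163 CPM.

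Of the remaining small subunits of complex IV, cox6c had the lowest unadjusted p (0.043, with an adjusted p of 0.425 in edgeR's quasi-likelihood test). It measured 99.3 and 41.1 CPM in the controls and 44.5 and 28.1 CPM in NRas+, with control 2 between the NRas+ libraries. COX7C measured 268 and 135 CPM in the controls and 176 and 97.9 CPM in NRas+, and cox6b1 33.7 and 17 CPM against 14.9 and 16.8 CPM, where control 2 and NRas+ 2 were nearly level. Their neighbours in the complex were nearer to no difference. cox6b2, in mammals the testis isoform, measured 208 and 140.2 CPM in the controls and 162 and 186 CPM in NRas+, and cox8a measured 209 and 66.1 CPM against 173 and 96.6 CPM. COX7A2L, which in mammals joins complex III to complex IV in supercomplexes, measured 75.4 and 32.8 CPM in the controls and 69.0 and 43.8 CPM in NRas+. In these last genes both NRas+ libraries lay between the controls.

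Ratios of paralogs within a library depend little on its scaling, except near 0 CPM, where the added 0.5 CPM matters. They are not corrected for length and are compared here only between libraries. The log2 ratio of cox6a1 to COX6A1 was 4.10 and 4.64 in the controls and 5.71 and 5.13 in NRas+. The log2 ratio of atp5mc3b to ATP5MC3, both encoding the same c-ring subunit, was 1.82 and 1.78 in the controls and 1.25 and 1.23 in NRas+. The libraries of a condition differed far less than the conditions did. The log2 ratio of atp5if1b to atp5if1a, paralogs of the ATP synthase inhibitor, was -0.10 and 0.35 in the controls and 0.70 and 1.42 in NRas+, so the libraries of a condition stood further apart than control 2 and NRas+ 1 did. The ratios of cox8b to cox8a (-3.17 and -2.53 against -4.13 and -3.55), of cox6b2 to cox6b1 (2.61 and 3.01 against 3.39 and 3.43) and of atp5mea to atp5meb (-4.25 and -3.65 against -4.91 and -5.14) did not overlap either. Of 20 paralog ratios computed, 11 did not overlap between groups, 5 of them higher and 6 lower in NRas+. Among single genes, 20.5% of all tested did not overlap as higher and 21.8% as lower. Several ratios share a gene, so they are not independent. The other 9 ratios overlapped, among them those of COX4I2 to COX4I1, uqcrc2a to UQCRC2, COX7A2L to COX7A2 and ndufab1b to NDUFAB1. The ratio of ndufa4l2b and that of the SDHD pair are also among the 9, each with a gene near 0 CPM. The study's text names the standard parameters of featureCounts, which leave reads that map to several places uncounted, so counts of near-identical pairs are uncertain.

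**Figure D4:**
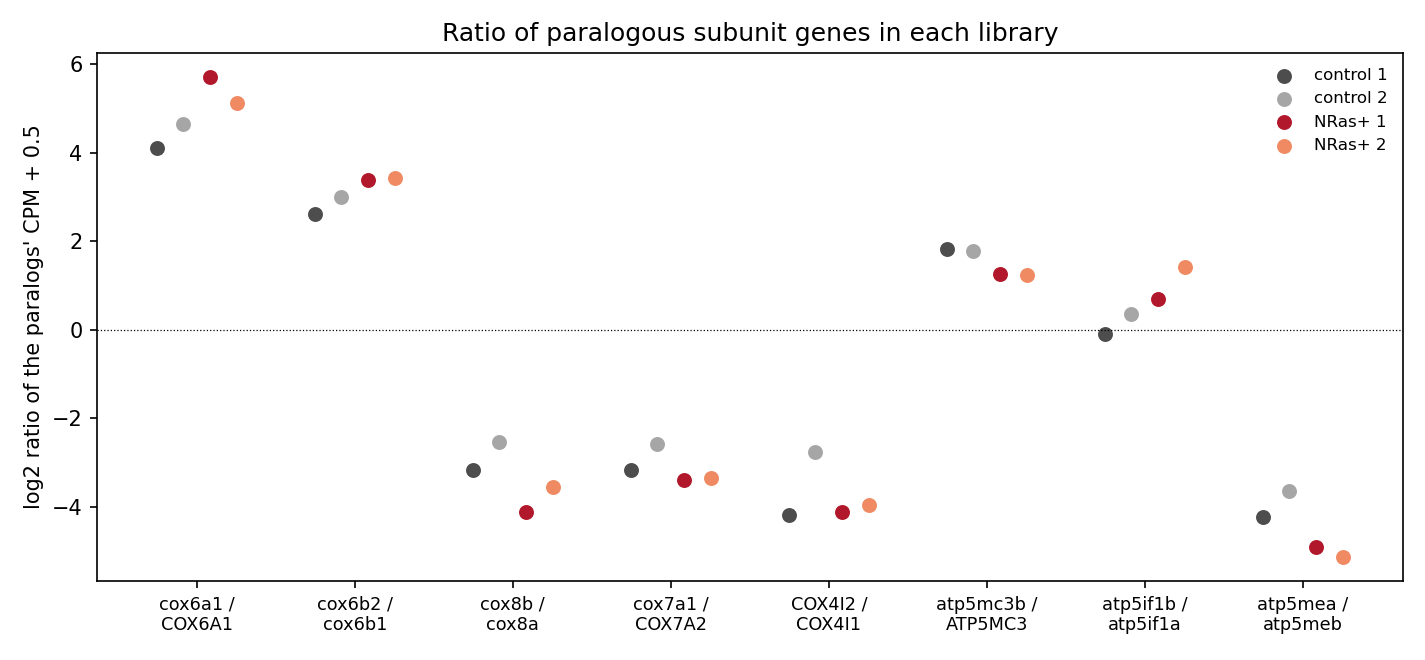
The log2 ratio of CPM + 0.5 between paralogous subunit genes is shown for each of the 4 libraries. The atp5mc3b to ATP5MC3 ratio forms a control pair at 1.82 and 1.78 and an NRas+ pair at 1.25 and 1.23, while in COX4I2 to COX4I1 control 2 alone lies apart at -2.78.

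In complex V the parts of the enzyme differed. Of the catalytic F1 head, ATP5F1A (alpha) measured 1471 and 661 CPM in the controls and 1057 and 979 CPM in NRas+, and ATP5F1B (beta) 1307 and 718 CPM against 1296 and 1367 CPM. ATP5F1C, the gamma subunit that forms the rotating shaft, was the only F1 gene without overlap (20%, beside 20.5% of all genes tested). It was at 557 and 297 CPM in the controls and 585 and 696 CPM in NRas+, a log2 fold change of 0.59 ± 0.46 (SE). The smallest F1 subunit gene, atp5f1e (epsilon), had 144 and 82.8 CPM in the controls and 86.0 and 41.8 CPM in NRas+, so the members of the head did not share a direction. The 3 c-ring genes were all positive, with ATP5MC3 at 338 and 199.9 CPM in the controls and 436 and 445 CPM in NRas+. The others were atp5mc3b at 1194 and 689 CPM against 1040.1 and 1040.2 CPM and atp5mc1 at 277 and 156 CPM against 262 and 218 CPM, both between the controls. The stalk that holds the head still (ATP5PO, ATP5PB, ATP5PD and ATP5PF) was mixed, with ATP5PO at 879 and 389 CPM in the controls and 663 and 702 CPM in NRas+ and ATP5PF at 259 and 97.7 CPM against 135 and 79.4 CPM. All 6 genes of the small membrane subunits (atp5m genes other than the c-ring) were negative, with a median log2 fold change of -0.80. ATP5MG, for example, measured 328 and 116 CPM in the controls and 156 and 97.8 CPM in NRas+, and atp5mf 107 and 47.5 CPM against 50.5 and 34.9 CPM. Only atp5mea (16.7%, beside 21.8% of all genes tested) had both NRas+ libraries below both controls. It was at 15.9 and 10.1 CPM in the controls and 7.6 and 5.1 CPM in NRas+, and its paralog atp5meb had a log2 fold change of -0.01. The negative direction held for 6 of 6 or 5 of 6 genes in every alternative fit but the one without control 1, where 3 of 6 were negative and the median was -0.01. The summed F1 genes relative to the summed small membrane subunits were 4.26 and 5.20 in the controls and 6.08 and 8.5 in NRas+. The inhibitor atp5if1a, which blocks ATP hydrolysis by the enzyme when the gradient fails, measured 234 and 94.5 CPM in the controls and 101 and 66.8 CPM in NRas+ (log2 fold change -0.97, unadjusted p = 0.0384 in edgeR's quasi-likelihood test). Its paralog atp5if1b, at 219 and 120.3 CPM in the controls and 164 and 179.7 CPM in NRas+, stayed inside the control range.

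As a sum, the 13 subunits encoded by the mitochondrial genome did not show this gap between the controls in CPM. Their summed level was 17003, 16840, 17058 and 17010 CPM in control 1, control 2, NRas+ 1 and NRas+ 2, so that the nuclear-encoded sum relative to it was 1.12, 0.556, 0.872 and 0.807. The even level in the controls holds after TMM scaling, since as a share of all counts these genes took 1.49% in control 1 and 2.36% in control 2. Single genes differed between control 1 and control 2 in both directions, with MT-CYB at 1133 and 1958 CPM and MT-ND2 at 678 and 458 CPM. Both NRas+ libraries lay below both controls in 6 of the 13 (46.2%, beside 21.8% of all genes tested). They lay above both in 1 (7.69%, beside 20.5%). None of the 13 passed the adjusted threshold, 9 of 13 had negative fold changes and the median was -0.18. MT-ND3, a complex I subunit, measured 70.2 and 57.9 CPM in the controls and 42.0 and 14.9 CPM in NRas+, the lowest p among them (unadjusted p = 0.0157 and adjusted p = 0.308 in edgeR's quasi-likelihood test). The transcripts of these genes arise in mitochondria, outside the nuclei that were pulled down, and the part of carried-over mitochondria in the values was not tested.

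Genes that feed the chain showed a more uniform direction than the chain itself. Of 17 tested genes of the TCA cycle and pyruvate dehydrogenase, which supply NADH and succinate, all 17 had positive fold changes with a median of 0.80. In 14 (82.4%, beside 20.5% of all genes tested) the NRas+ libraries lay above both controls. Of the 17 genes 5 were higher at an unadjusted p under 0.05, as were 5.16% of all genes tested. After adjustment 0 passed by edgeR's quasi-likelihood test, with 1 passing in DESeq2. Citrate synthase (CS) measured 138 and 122 CPM in the controls and 256 and 286 CPM in NRas+, and the pyruvate dehydrogenase subunit pdha1a 60.1 and 58.6 CPM in the controls and 135 and 166 CPM in NRas+ (adjusted p = 0.144 in edgeR's quasi-likelihood test). The direction was positive in at least 16 genes under each alternative except total counts only, where it was positive in 14. SDHA belongs to the cycle as well as to the chain and had both NRas+ libraries above both controls, as 14 of these genes did. Cytochrome c, the electron transfer flavoproteins and the carriers of ADP, phosphate and small solutes had 11 of 13 positive, with a median of 0.55 and none called. Assembly factors of complexes I and III to V had 30 of 41 positive (median 0.29, none called), and transcriptional regulators of mitochondrial genes 4 of 13 (median -0.20, none called). Among the regulators PPARGC1A, a coactivator of mitochondrial biogenesis, measured 38 and 22.4 CPM in the controls and 5.16 and 13.1 CPM in NRas+ (adjusted p = 0.156 in edgeR's quasi-likelihood test).

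Muscle markers differed between the same libraries. The 29 skeletal muscle markers summed to 348755 and 152604 CPM in the controls and to 511082 and 470371 CPM in NRas+, with 26 of 29 positive, a median log2 fold change of 0.97 and none called. Of 9 tested heart muscle markers 8 were positive (median 1.58) and 1, MYL7, passed the adjusted threshold. MYL7 measured 4.24 and 5.56 CPM in the controls and 37.3 and 74.3 CPM in NRas+. The exception was MYH6 (ENSDARG00000079564), which held most of the list's counts. It measured 589 and 463 CPM in the controls and 302 and 294 CPM in NRas+. The summed heart list overlapped between groups, at 657 and 547 CPM in the controls and 470 and 553 CPM in NRas+. Relative to the skeletal muscle sum, the respiratory chain sum was 0.0548 and 0.0613 in the controls and 0.0291 and 0.0292 in NRas+, and the TCA cycle sum was 0.00818 and 0.0126 in the controls and 0.00721 and 0.00792 in NRas+. The controls of the chain thus lay closer together on this scale than on the CPM scale, whereas those of the TCA cycle did not. For the mtDNA-encoded sum the controls lay further apart on this scale, at 0.0488 and 0.110, with 0.0334 and 0.0362 in NRas+. The part of muscle RNA in the values of the members was not tested. A higher sum in NRas+ was not particular to muscle and TCA cycle genes. The neutrophil markers summed to 76.4 and 91.0 CPM in the controls and 97.6 and 112 CPM in NRas+. Of 13 tested, 9 were positive (median 0.69) and none was called. As a share of all counts their groups overlapped, with control 2 highest at 0.0128%.

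**Figure D5:**
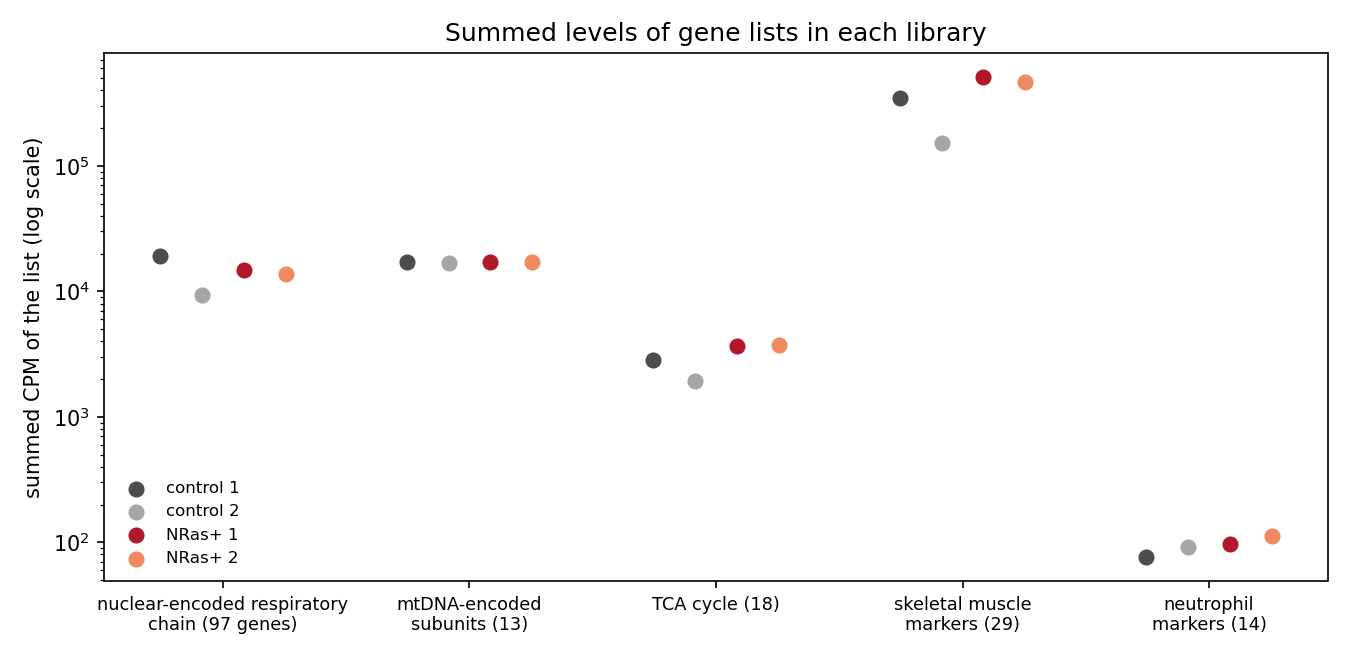
Summed CPM (log axis) of 5 gene lists in each library. The nuclear-encoded chain spans 9361 to 19096 CPM with the controls at both ends, and the mtDNA-encoded subunits stay between 16840 and 17058 CPM. The TCA cycle, skeletal muscle and neutrophil lists have both NRas+ libraries above both controls.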

How the data were processed

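The authors aligned the reads to danRer10 with STAR 2.4.2a and made a table of counts on Ensembl genes with featureCounts. The deposited values are these counts without scaling, with 0 columns of other samples in the table. The strand setting was not settled, since the labels name a reverse strand and the paper standard parameters, so overlapping and antisense genes are uncertain. The members and lists were chosen with earlier results of these data known. Symbols came from a gene name table. Genes were kept by filterByExpr and libraries scaled by TMM, and the test was run in edgeR 4.0.16 (limma 3.58.1, R 4.3.3) by glmQLFit without the legacy option, with group as the only term, all 4 libraries and an adjusted p threshold of 0.05. CPM is the count relative to library size times TMM factor, not divided by gene length, so levels are not compared between genes. Medians and ratios per library used log2(CPM + 0.5). Core subunits were the 7 catalytic subunits of complex I, all of complex II, the UQCRC and Rieske genes and the F1 genes. In complex IV the cox4 and cox5 genes were labelled core, although its catalytic subunits are encoded by the mitochondrial genome. Genes picked for naming were those labelled core and the 3 of highest mean CPM in each complex. The 5 of smallest unadjusted p in each direction, paralog pairs, ring and inhibitor genes were picked too. Not all genes picked are named in the text. Other genes were named after their values were seen. The fit was tested on simulated data. Alternatives were DESeq2 1.42.0, RLE size factors, TMM without muscle genes, no filter, at least 10 counts in every library, the replicate number as a block, ndufa4 genes placed by prefix and leaving out each library. The legacy fit and total counts were chosen after seeing the data. Sequences and promoter motifs were not used here. The values of 1 member are not reported here.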

Additional observations from a re-analysis of the deposited data

How the results depend on the processing

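The count of members higher in NRas+ was 0 in every fit, and the count lower was 0 in every fit except the one without control 2, which gave a range of 0 to 8 when each library was left out in turn. Leaving out each library gave median log2 fold changes from -0.47 to 0.52 for all members, -0.44 to 0.49 for complex I, 0.22 to 0.97 for complex II, -0.30 to 0.58 for complex III, -0.60 to 0.42 for complex IV and -0.49 to 0.55 for complex V. In each the lowest value came without control 2 and the highest without control 1. Total counts in place of TMM moved the median of all genes tested from -0.04 to -0.40 and that of the members to -0.28, with 23 of 96 members positive. With ndufa4 genes placed by prefix, complex I had a median of -0.07 and complex IV of -0.32. Over all genes the calls were 26 higher and 8 lower, 205 and 178 with DESeq2, 19 and 2 with no filter, 88 and 64 with at least 10 counts in every library, 10 and 0 in the legacy fit, 8 and 14 with total counts only, 121 and 46 without control 1, 178 and 417 without control 2, 18 and 2 without NRas+ 1 and 12 and 0 without NRas+ 2. With the replicate number as a block they were 7 and 0, no member was called and 51 of 96 members were positive. Replicate differences correlated between the conditions by 0.149 across all genes and by 0.406 across the members, and with 2 pairs the libraries share only a number. Of the 51 members picked for naming that had a fold change, 13 changed sign without control 1, 14 without control 2 and 12 with total counts only. With 2 libraries per condition the median standard error of a member was 0.43 on the log2 scale, and differences of about that size could not be told from the spread.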
